A study of Homo sapiens with 4 samples.

Results

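The genes here are a set around the making, sensing and removal of extracellular adenosine in A549 cells, an established line of human lung adenocarcinoma. They are NT5E (the ecto-5'-nucleotidase CD73), ENTPD1 (CD39), ENTPD5, ADORA2A, ADORA2B, SLC29A1, ADA, ADK and DPP4 (CD26). Every array probe annotated to exactly 1 of these symbols was used, which gave 13 probes for 9 genes, out of 31741 probes and 18255 named genes on the array. Of the 9 genes, 6 had 1 probe, 2 had 2 probes and 1 had 3. The cells had been transfected and were profiled at 48 h on 4 one-colour arrays, 1 for each group. The groups were an siRNA against PML (siPML) with its control siRNA (siCtrl), and a WDR4 overexpression plasmid (WDR4) with its vector control (vector). All 4 groups share the cell line, the time and the fact of transfection, and no separate cultures are described for any group. PML builds the nuclear bodies named after it, and WDR4 has been described as a ubiquitin ligase subunit that targets PML, so the design sets siPML against siCtrl and WDR4 against vector. With 1 array for each group nothing was tested, there are no p-values, and "higher" or "lower" describes an array and not a treatment. CD73 was followed up in the published study after being picked from these profiles, so its direction here is not independent evidence.

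Extracellular ATP, which stressed or dying cells release, is cut to AMP by membrane enzymes such as CD39. CD73, a lipid-anchored enzyme on the outer face of the membrane, then cuts AMP to adenosine. Adenosine acts on G protein-coupled receptors, among them those encoded by ADORA2A and ADORA2B, which raise cyclic AMP and dampen the activity of T cells. Its signal ends when the equilibrative transporter ENT1 (SLC29A1) carries it into the cell, where adenosine kinase (ADK) turns it back into AMP, or when adenosine deaminase (ADA) turns it into inosine. CD26 (DPP4) is a membrane peptidase that in human cells anchors ADA at the cell surface. In epithelial cells CD73 and the ADORA2B receptor have been described as induced by hypoxia-inducible factor (HIF), and ENT1 and ADK as repressed under hypoxia.

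The promoters of NT5E, DPP4 and ADORA2B are shown because the RNA of these genes stood highest above control on siPML among the genes with a promoter sequence, in the values below. Each runs from 250 bases before to 50 bases after an annotated start, on the coding strand, 5' to 3', from RefSeq on build GRCh38.p14. NT5E lies at chr6:85449833-85450132 (+ strand), DPP4 at chr2:162074166-162074465 (- strand) and ADORA2B at chr17:15944880-15945179 (+ strand). Capitals mark ACGTG, the core of a hypoxia response element, and TGACG, a piece of the cAMP response element, on either strand.
NT5E: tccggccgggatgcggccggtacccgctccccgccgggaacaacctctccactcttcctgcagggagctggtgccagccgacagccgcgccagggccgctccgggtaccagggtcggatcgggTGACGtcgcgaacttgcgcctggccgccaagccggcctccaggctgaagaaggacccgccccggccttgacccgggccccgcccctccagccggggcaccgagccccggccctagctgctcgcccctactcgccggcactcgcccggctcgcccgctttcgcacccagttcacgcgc
DPP4: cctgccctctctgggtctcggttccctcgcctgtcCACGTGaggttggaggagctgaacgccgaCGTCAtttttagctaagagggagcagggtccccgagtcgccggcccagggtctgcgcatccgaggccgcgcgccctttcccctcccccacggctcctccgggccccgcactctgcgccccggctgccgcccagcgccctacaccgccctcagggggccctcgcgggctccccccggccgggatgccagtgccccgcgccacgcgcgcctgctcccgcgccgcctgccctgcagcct
ADORA2B: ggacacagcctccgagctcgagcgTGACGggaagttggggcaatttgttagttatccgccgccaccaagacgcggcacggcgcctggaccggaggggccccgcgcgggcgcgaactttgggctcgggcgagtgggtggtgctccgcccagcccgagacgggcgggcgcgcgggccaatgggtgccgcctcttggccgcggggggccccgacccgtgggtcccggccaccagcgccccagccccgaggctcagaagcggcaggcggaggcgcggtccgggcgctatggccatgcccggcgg

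The NT5E promoter held 1 TGACG, which began at base -127 from the start, and no ACGTG. The DPP4 promoter held ACGTG on both strands in the palindrome CACGTG at -215, and CGTCA, the reverse strand of TGACG, at -186. The ADORA2B promoter held 1 TGACG at -226 and no ACGTG. Sites outside the windows were not searched, so the absence of a motif holds for the window only. The windows of ADORA2B and ENTPD1 lie inside the annotated genes and not at their outer ends. Each of the 3 also held 2 boxes of GGGCGG, the motif of the factor SP1, counted on either strand, and their GC content lay between 75% and 75.7%, against a median of 58.3% over all promoters. Of 27305 promoters of the same length, 21.6% held ACGTG, 25% held TGACG and 44.6% held GGGCGG on at least 1 strand. Among the 7589 promoters of kept genes these shares were 27.3%, 35.2% and 70.8%. Promoters of 8 of the 9 genes were matched by symbol. Among the other 5, SLC29A1 held the palindrome CACGTG at -245, ENTPD5 held 2 TGACG, and ENTPD1, ADA and ADK held neither motif.

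Values are linear intensities as deposited, and differences are of log2(intensity + 1). Between 10 and 600 units nearly all deposited values equalled the mean of 2 readings of the array, and the spread of those readings gave a technical standard error (SE) for each level of intensity. Whether the readings are spots, scans or arrays is unknown, and with 1 deposited value for each group the SE is not taken to cover variation between cultures. A 95% interval below is 1.96 such SE to either side. Genes were kept for counts when the mean of their brightest probe reached the median of all named genes, an intensity of 223, which left 9128 genes. Of the adenosine genes, 6 passed (NT5E, ADA, ADK, ADORA2A, ADORA2B and SLC29A1), and ENTPD1, ENTPD5 and DPP4 did not. ADORA2A passed only through its level on the plasmid arrays. The brightest PML probe read 506 on siPML and 853 on siCtrl, and the brighter of the 2 WDR4 probes read 4708 on WDR4 and 1140 on vector, while its dimmer probe read 890 and 1191. The controls also differed from each other in these genes. That PML probe read 3840 on vector and 5015 on WDR4, a difference of 2.17 for vector against siCtrl. The brighter WDR4 probe read 1271 on siPML and 2350 on siCtrl, a difference of -1.04 for vector against siCtrl. Of 5 epithelial markers EPCAM, KRT7, KRT19 and CDH1 were above the filter level and KRT8 was not, at 42.4 to 71.3. The leukocyte list had 2 of 7 such genes, CD14 and the T cell gene CD3D (644 to 790), while CD3E and PTPRC read 18.3 or less on every array. The fibroblast list had 1 of 7, COL1A1 (411 to 604), and the endothelial list 0 of 5. The purine enzyme gene MTAP, which A549 cells are known to have lost, read 8.52 to 15 and was picked for this check after its values were seen.

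NT5E, the gene of CD73, stood higher on both manipulated arrays than on their controls. Its only probe read 2773 on siPML and 910 on siCtrl, and 3285 on WDR4 and 1828 on vector. WDR4 was the highest array and siCtrl by far the lowest, and the vector array itself lay well above siCtrl. NT5E was 3.05-fold higher on siPML than on siCtrl (log2 difference 1.61, SE 0.11, interval 1.38 to 1.83) and 1.80-fold higher on WDR4 than on vector (0.85, SE 0.08, interval 0.68 to 1.01). The difference of vector from siCtrl, 2 arrays that carry neither manipulation, was 1.01 (SE 0.10, 2.01-fold), and it was 0.80 after quantile normalization and 0.76 after median centring. Between neighbours in the order WDR4, siPML, vector, siCtrl, every step was larger than the technical error, the smallest being WDR4 over siPML at 0.24 (SE 0.10). That step depended on the scaling of the arrays and was 0.16 after quantile normalization and 0.02 after each array was centred on its median. How far 2 cultures of the same kind would differ is unknown, and bulk RNA cannot tell more RNA in each cell from more cells that express the gene.

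Most kept genes differed far less than NT5E between a manipulated array and its own control. Of the 9128 kept genes, 0.351% lay above NT5E in siPML against siCtrl and 0.701% in WDR4 against vector, while 9.28% did so in vector against siCtrl. Among 1557 genes whose mean level lay within 0.5 of that of NT5E on the log2 scale, the median differences in the same comparisons were -0.04, -0.08 and 0.12. Those 2 manipulated comparisons share no array, and 0 of the other 9127 kept genes lay at least as far above control as NT5E in both. Without the filter 28 other genes did, all of them below the filter level. The cut-offs were the values of NT5E itself, a gene picked from these profiles, and this count was not planned. It is description and not separate support. The gene TFF1 lay above NT5E in siPML against siCtrl (1.91) and just below it in WDR4 against vector (0.83). The choice of control set the size of the difference, since siPML lay only 0.60 above vector and WDR4 lay 1.85 above siCtrl. In siPML against vector 11.9% of kept genes lay above NT5E, and 36.6% had a larger absolute difference. In WDR4 against siCtrl these shares were 2.08% and 2.30%.

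**Figure D1:**
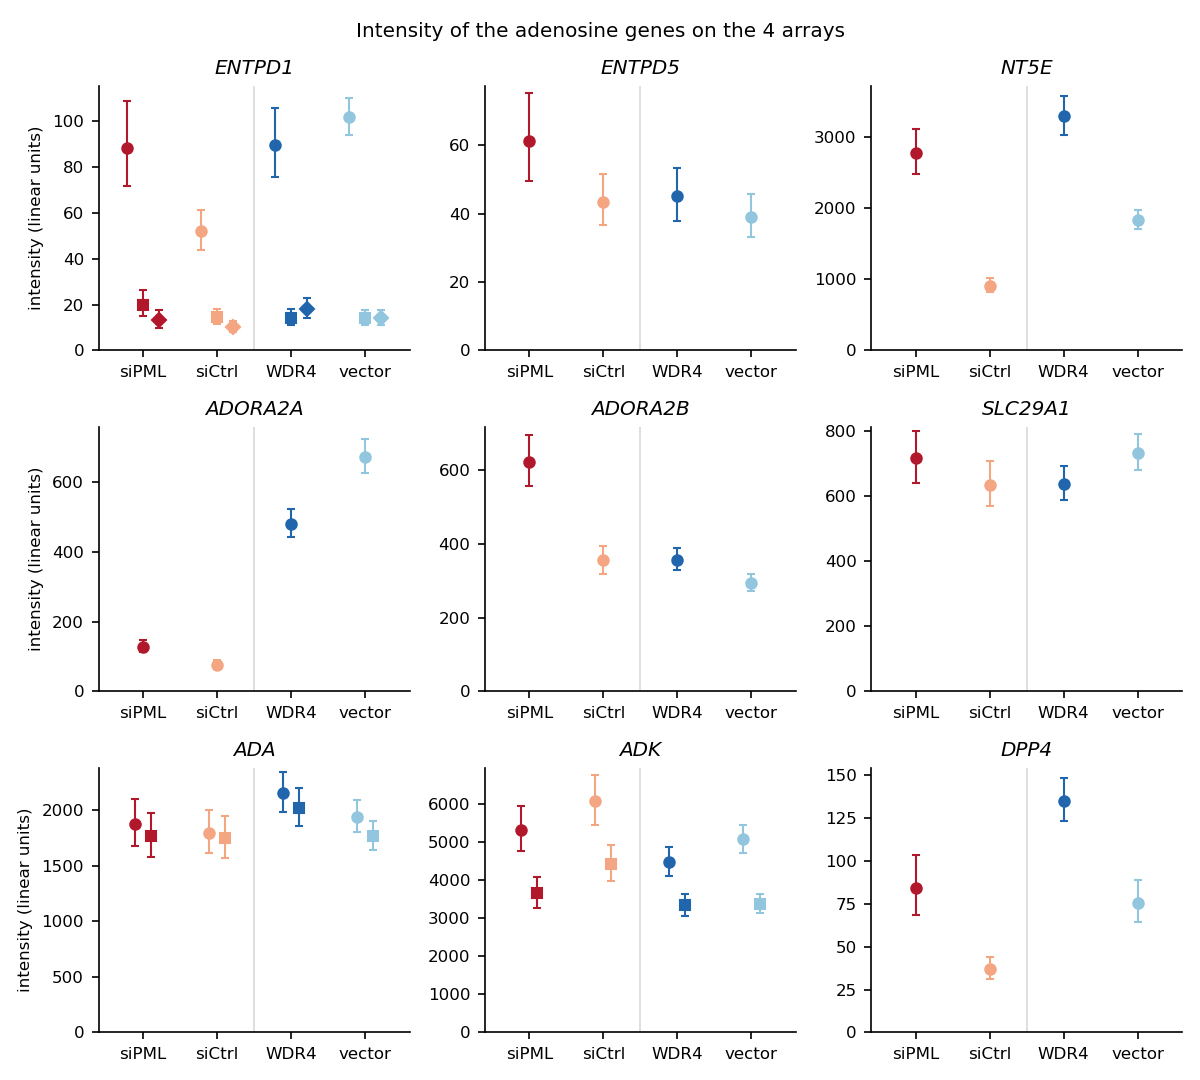
Linear intensity of every probe of the 9 adenosine genes on the siPML, siCtrl, WDR4 and vector arrays, 1 point for each probe (circles for the brightest probe of a gene, squares and diamonds for its dimmer ones), with bars of 1.96 technical SE from the spread of the readings. NT5E and DPP4 share an order in which WDR4 is highest and siCtrl lowest, ADORA2A is high on both plasmid arrays, ADORA2B is highest on siPML, and the probes of ADA and ADK stay in narrow ranges.

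ENTPD1 and ENTPD5 were dim. ENTPD1, the gene of CD39, which supplies AMP, read 88.4 on siPML and 51.9 on siCtrl, and 89.5 on WDR4 and 102 on vector with its brightest probe. Only siCtrl stood apart, and the other 3 arrays did not differ beyond the technical error. The log2 differences were 0.76 (SE 0.19) for siPML against siCtrl, -0.18 (SE 0.14) for WDR4 against vector and 0.96 (SE 0.13) for vector against siCtrl. The other 2 ENTPD1 probes read between 10.0 and 20.0 on all arrays, and neither differed from its own control beyond the technical error. ENTPD5, which belongs to the same enzyme family and acts in the endoplasmic reticulum, read 61.2 on siPML and 43.6 on siCtrl, and 45.0 on WDR4 and 39.0 on vector. It was higher on siPML than on each other array, and those others did not differ beyond the technical error. Its difference for siPML against siCtrl was 0.48 (SE 0.19).

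Dim genes in general read higher on the manipulated arrays, and that has to be set beside these values. The lower quartile of all probes was 23.5 on siPML and 19.4 on siCtrl, and 26.5 on WDR4 and 20.0 on vector. Among 1717 genes of like level to ENTPD1 the median difference was 0.25 for siPML against siCtrl, and 13.4% lay at least as high as ENTPD1. Among 1665 genes of like level to ENTPD5 that median was 0.28, and 29.5% lay at least as high as ENTPD5.

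The receptor genes ADORA2A and ADORA2B differed from each other in pattern. ADORA2A read 128 on siPML and 75.7 on siCtrl, against 481 on WDR4 and 673 on vector. The plasmid arrays stood far above the siRNA arrays, and vector was the highest of all. ADORA2A was 8.79-fold higher on vector than on siCtrl (3.14, SE 0.13), and 0.526% of kept genes lay above it there. ADORA2A passed the filter only through the plasmid arrays, so the filter itself favours a high place in this comparison, and the share is not read as a result. Its difference was 0.75 (SE 0.15) for siPML against siCtrl and -0.49 (SE 0.08) for WDR4 against vector, so the manipulated arrays lay on opposite sides of their own controls. Set against vector, siPML read lower by a difference of -2.39.

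ADORA2B, the gene of the low-affinity adenosine receptor of many epithelia, had its highest reading on siPML. It read 622 on siPML and 355 on siCtrl, and 357 on WDR4 and 294 on vector. siPML stood above the other 3 arrays, WDR4 and siCtrl could not be told apart, and vector was lowest. The log2 difference was 0.81 (SE 0.11, 1.75-fold) for siPML against siCtrl, 0.28 (SE 0.08) for WDR4 against vector and -0.27 (SE 0.10) for vector against siCtrl. siPML was above both controls, by 1.08 over vector, whereas WDR4 was 0.01 above siCtrl. Of kept genes, 4.58% lay above ADORA2B in siPML against siCtrl.

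The readings behind the ADORA2B and ADORA2A intensities show how close the 2 were. For ADORA2B they were 631 and 614 on siPML, and 289 and 422 on siCtrl. On WDR4 they were 358 and 356, and on vector 289 and 300. The siCtrl readings were the farthest apart of the 4, at 0.55 on the log2 scale, where the SD of that ratio at this level was 0.158, so the SE of 0.11 may be too small for this probe. Both siCtrl readings lay below both siPML readings. For ADORA2A the readings were 129 and 126 on siPML, 85.5 and 65.9 on siCtrl, and 478 and 483 on WDR4, so the readings of these arrays did not overlap. How many of all genes have readings apart in this way is not given, so for both genes this is description only.

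**Figure D2:**
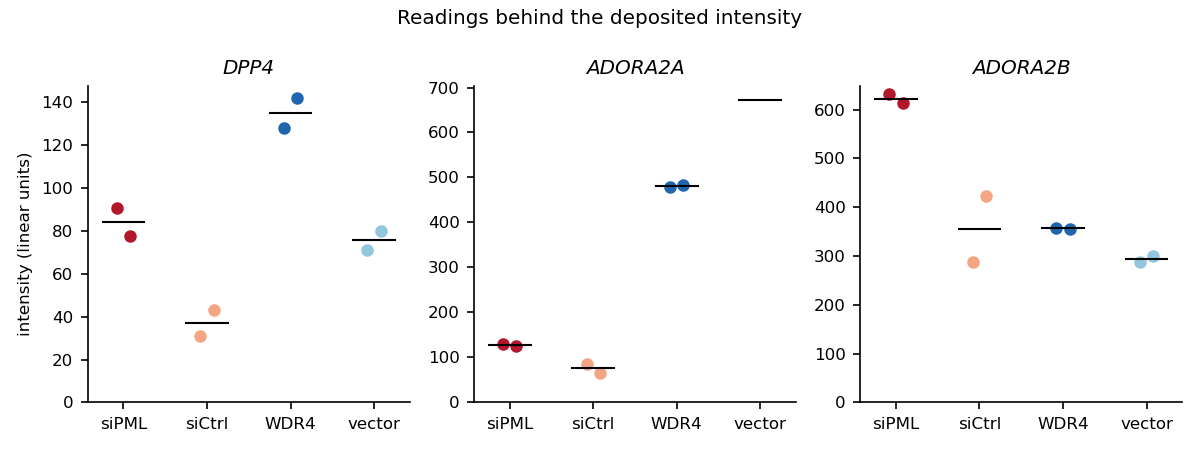
Readings (points) recovered from the deposited linear intensity (line) of DPP4, ADORA2A and ADORA2B on the siPML, siCtrl, WDR4 and vector arrays. The readings of siPML lie above those of siCtrl in all 3 panels, those of WDR4 lie above those of vector for DPP4 and ADORA2B, and the ADORA2A readings on vector could not be recovered reliably and are not drawn. Where the readings came from is unknown, and they are not counted as replicates.

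The other adenosine receptor genes were dim. ADORA1, whose receptor lowers cyclic AMP, read 67.5 on siPML and 107 on siCtrl, and 100 on WDR4 and 107 on vector. ADORA3, of the same inhibitory type, read 111 on siPML and 74.4 on siCtrl, and 77.5 on WDR4 and 61.6 on vector. Neither passed the filter.

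Genes that remove adenosine varied little. SLC29A1, the gene of the transporter ENT1, read 714 on siPML and 634 on siCtrl, and 637 on WDR4 and 732 on vector. No neighbours in the order of the 4 arrays differed beyond the technical error, and the differences were 0.17 (SE 0.11) for siPML against siCtrl and -0.20 (SE 0.08) for WDR4 against vector. Arrays farther apart in that order did differ beyond it, WDR4 from vector and vector from siCtrl (0.21, SE 0.10), and the difference of vector from siCtrl was -0.0028 after quantile normalization and -0.04 after median centring. The other 6 nucleoside transporter genes measured, SLC29A2 to SLC29A4 and SLC28A1 to SLC28A3, were all below the filter.

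ADA, the deaminase, had 2 probes that read alike. The first read 1877 on siPML and 1801 on siCtrl, and 2155 on WDR4 and 1944 on vector. The second read 1769 and 1750, and 2021 and 1767, with the arrays listed in the same sequence. Both probes read highest on WDR4 and lowest on siCtrl, and siPML and vector did not differ beyond the technical error with either. The differences of the first probe were 0.06 (SE 0.11) for siPML against siCtrl and 0.15 (SE 0.08) for WDR4 against vector, and those of the second were 0.02 and 0.19. Of these differences only that of the second probe in WDR4 against vector lay beyond the technical error. ADA spanned 0.26 on the log2 scale over the 4 arrays, against 1.85 for NT5E.

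ADK, the kinase that returns adenosine to AMP, had its highest level on siCtrl. Its first probe read 5316 on siPML and 6065 on siCtrl, and 4471 on WDR4 and 5066 on vector, and the second probe read 3656 and 4420, and 3333 and 3375. Both probes were a little lower on the manipulated arrays, and each comparison passed the technical error with 1 of the 2 probes. The differences for siPML against siCtrl were -0.19 (SE 0.11) and -0.27 (SE 0.11), and those for WDR4 against vector were -0.18 and -0.02 (SE 0.08 each). The direction of ADK in siPML depended on the control, since siPML was 0.07 above vector with the first probe.

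DPP4, the gene of CD26, followed the order of NT5E at a low intensity. It read 84.1 on siPML and 37.2 on siCtrl, and 135 on WDR4 and 75.6 on vector. WDR4 was highest and siCtrl lowest, and siPML and vector did not differ beyond the technical error. The log2 difference was 1.16 (SE 0.19, 2.23-fold) for siPML against siCtrl, 0.83 (SE 0.14, 1.78-fold) for WDR4 against vector and 1.00 (SE 0.17, 2.01-fold) for vector against siCtrl. The readings were 90.7 and 77.5 on siPML and 31.1 and 43.3 on siCtrl, then 128 and 142 on WDR4 and 71.2 and 80.1 on vector. In both comparisons the readings of the manipulated array lay above those of its control. The share of all genes whose readings lie apart in this way is not given, so this is description only. Of 1707 genes of like level, 4.86% lay at least as high as DPP4 in siPML against siCtrl and 8.08% in WDR4 against vector, and their median differences were 0.26 and 0.27.

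**Figure D3:**
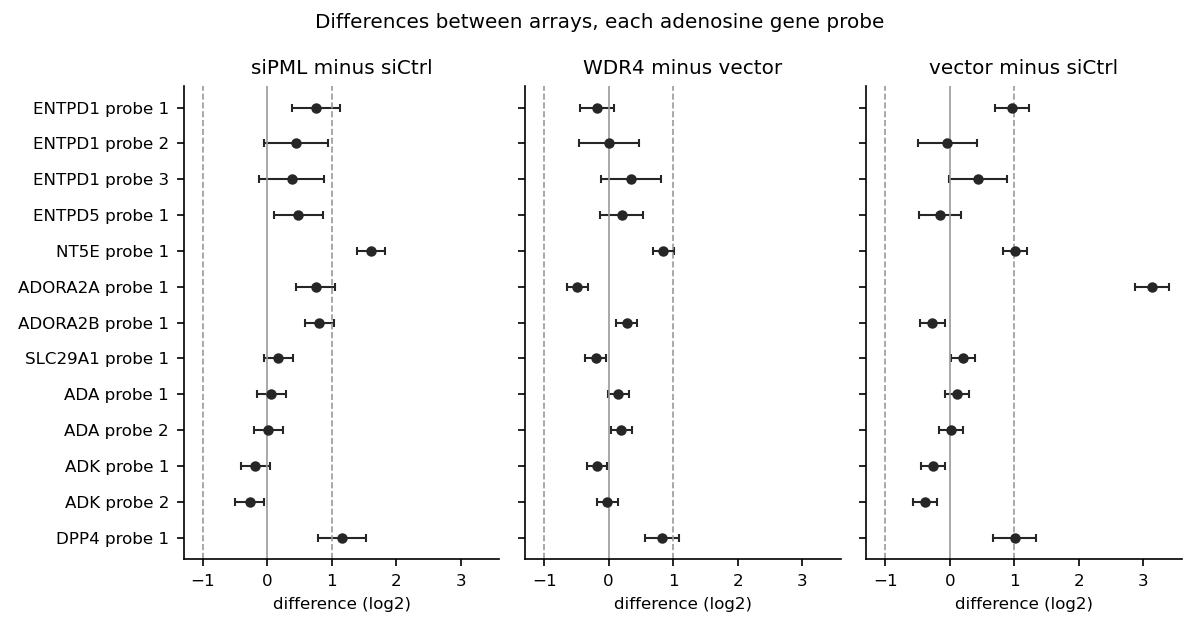
Differences of log2(intensity + 1) for each of the 13 probes in siPML minus siCtrl, WDR4 minus vector and vector minus siCtrl, with 95% intervals from the technical SE and dashed lines at 2-fold. NT5E and DPP4 lie to the right in all 3 panels, and ADORA2A lies to the right in siPML minus siCtrl (0.75), to the left in WDR4 minus vector (-0.49) and at 3.14 in vector minus siCtrl.

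Among the 6 kept genes, 1 (NT5E) was at least 2-fold higher on siPML than on siCtrl, where 2.3% of all kept genes were, and 0 were 2-fold lower, where 4.27% were. In WDR4 against vector 0 were 2-fold higher and 0 lower, against 0.362% and 0.285% of all kept genes. In vector against siCtrl 2 (NT5E and ADORA2A) were 2-fold higher, where 9.43% of all kept genes were, and 0 were 2-fold lower, where 3.14% were. ADORA2A passed the filter through the plasmid arrays, so its place in that count follows from the filter. NT5E was just past 2-fold, and the count was 1 after quantile normalization, median centring or the addition of 16 before log2. With the upper quartile filter it was also 1, because ADORA2A was too dim for that filter. The median of the 6 genes was 0.46 in siPML against siCtrl, -0.02 in WDR4 against vector and 0.16 in vector against siCtrl, beside 0.01, -0.04 and 0.10 over all kept genes. Without ADORA2A the median of the other 5 was 0.17 in siPML against siCtrl and 0.11 in vector against siCtrl. In siPML against siCtrl 5 of the 6 lay above 0, beside 51.1% of all kept genes, and in WDR4 against vector 3 did, beside 43.7%. The comparison of vector with siCtrl shares an array with each of the others, so its values are only set beside theirs.

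**Figure D4:**
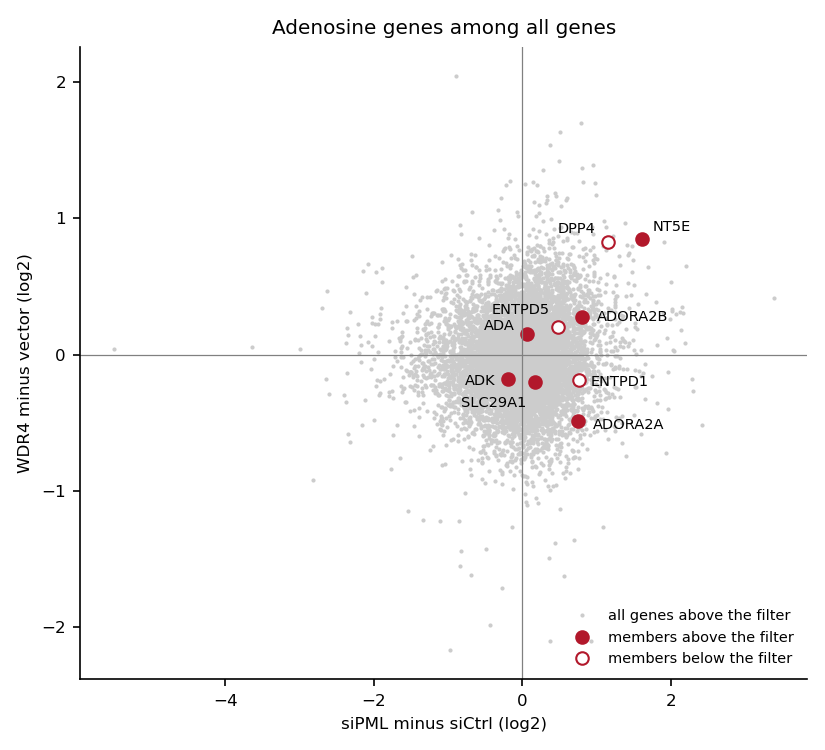
Difference of log2(intensity + 1) in WDR4 minus vector (vertical) against siPML minus siCtrl (horizontal), 1 point for each gene, with 9128 kept genes in grey and the 9 adenosine genes in red (open circles for the 3 below the filter). NT5E (1.61 and 0.85) and DPP4 (1.16 and 0.83) lie at the upper right edge of the cloud, and the other 7 lie between -0.49 and 0.28 on the vertical axis. The cloud leaves out genes as dim as DPP4.

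The genes whose pattern over the 4 arrays was most like that of NT5E were taken from 2493 kept genes that spanned at least 1 on the log2 scale. Likeness was the root mean square distance between log2 profiles, each centred on its own mean, and its median over these genes was 0.883. AKAP12, an anchoring protein for protein kinase A, was nearest at 0.0944, and it read 2386 on siPML and 911 on siCtrl, and 3027 on WDR4 and 1554 on vector. NFIX, a transcription factor of the nuclear factor I family, lay at 0.106 and differed by 1.69 in siPML against siCtrl and by 0.65 in WDR4 against vector. LFNG, which adds sugars to Notch receptors, lay at 0.143 with differences of 1.22 and 0.87, and the secreted trefoil peptide TFF1 lay at 0.158 with 1.91 and 0.83. CD276, the immune checkpoint protein B7-H3, lay at 0.159 with 1.48 and 0.61. All of them had siCtrl as the lowest array. The distance of DPP4 was 0.192, which 0.321% of the compared genes undercut, while ADORA2A lay at 1.10 and ADORA2B at 0.676. DPP4 is itself below the filter and the compared genes are all above it. That share therefore leaves out dim genes, which in general read higher on the manipulated arrays.

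Other surface enzymes that act on nucleotides were mostly dim, with 3 of 13 kept. CD38, which consumes NAD and feeds an alternative route to AMP, read 1116 on siPML and 2236 on siCtrl, and 9291 on WDR4 and 9870 on vector. It was high on both plasmid arrays, and WDR4 differed from vector by -0.09. CD38 was the 1 gene of the list at least 2-fold lower on siPML than on siCtrl (-1.0), where 4.27% of all kept genes were. BST1, a relative of CD38, and the alkaline phosphatase ALPI, which can also cut AMP, differed by 0.12 and 0.21 in siPML against siCtrl and by 0.01 and 0.19 in WDR4 against vector. No kept gene of the list was 2-fold higher than its own control, beside 2.3% of all kept genes on siPML and 0.362% on WDR4.

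Of the 11 intracellular NTPDases and 5'-nucleotidases, 8 were kept and 0 were 2-fold different from their own control in either comparison. Of all kept genes, 2.3% were 2-fold higher and 4.27% lower on siPML, and 0.362% higher and 0.285% lower on WDR4. NT5C3A, a cytosolic pyrimidine nucleotidase, read 3994 on siPML and 2602 on siCtrl (0.62), and 14660 on WDR4 and 10450 on vector (0.49). Like CD38, it was much higher on the plasmid arrays than on the siRNA arrays. ENTPD4, a Golgi enzyme, differed by 0.48 in siPML against siCtrl and by 0.43 in WDR4 against vector, and NT5C3B by -0.46 and -0.11. The median of the 8 was 0.24 in siPML against siCtrl (-0.04 against vector) and -0.08 in WDR4 against vector.

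Genes of ATP release lay mostly below their control on siPML. Of 5 kept release genes 4 lay below 0, beside 48.9% of all kept genes, among them GJA1 (connexin 43), at -0.66, and LRRC8A, a subunit of volume-regulated anion channels, at -0.65. The exception was GJB2 (connexin 26), which read 1012 on siPML and 424 on siCtrl (1.25). It was the 1 kept gene of the list that was 2-fold different, where 2.3% of all kept genes were 2-fold higher and 4.27% lower. Among the 3 release genes below the filter, ANKH, which exports ATP and pyrophosphate, read 20.1 on siPML and 52.7 on siCtrl (-1.35) and is named for passing 2-fold after its values were seen. In WDR4 against vector GJA1, LRRC8A and GJB2 differed by -0.05, 0.00 and 0.06. Of the P2 receptor genes, which sense ATP before it is cut, 3 of 17 were kept, and P2RX4, P2RY6 and P2RX5 differed by -0.66, -0.60 and 0.35 in siPML against siCtrl and by -0.02, -0.23 and 0.29 in WDR4 against vector. None of these P2 receptor genes was 2-fold different in either comparison. Of all kept genes, 2.3% were 2-fold higher and 4.27% lower on siPML, and 0.362% higher and 0.285% lower on WDR4. Over all 17 without the filter the siPML array lay above siCtrl for 11, with a median of 0.24.

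Genes that handle adenosine and other purines inside the cell lay mostly below their control on siPML. Of 16 kept genes 13 were below 0, beside 48.9% of all kept genes, with a median of -0.35 (0.03 against vector). Only 1 of the 16, HPRT1, the salvage enzyme for hypoxanthine and guanine, was 2-fold lower, beside 4.27% of all kept genes. HPRT1 read 2144 on siPML and 8720 on siCtrl (-2.02), and 6867 on WDR4 and 5664 on vector (0.28). siPML was its lowest array by far. GDA, a guanine deaminase, and DCK, the deoxycytidine kinase, differed by -0.95 and -0.93 in siPML against siCtrl and by 0.12 and -0.17 in WDR4 against vector. In WDR4 against vector 9 of the 16 were below 0, close to the 56.3% of all kept genes, with a median of -0.07.

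The genes through which adenosine receptors signal were described as 2 lists, coupling and the cAMP response. The coupling genes encode G protein subunits, adenylyl cyclases and catalytic subunits of protein kinase A. Of 11 kept, 8 lay below 0 in siPML against siCtrl, beside 48.9% of all kept genes, with a median of -0.29. Of the 11, 0 were 2-fold different there, where 2.3% of all kept genes were 2-fold higher and 4.27% lower. GNAI3, an inhibitory G protein subunit, differed by -0.79, the cyclase gene ADCY9 by -0.57, and GNAQ, a subunit of the phospholipase C pathway, by 0.47. Of 16 kept genes of the cAMP response 9 lay above 0, beside 51.1% of all kept genes. Their median of 0.11 turned to -0.77 against vector and to -0.49 with the upper quartile filter. Only AKAP12 (1.39) was 2-fold higher, beside 2.3% of all kept genes, while PDE4D, a phosphodiesterase that degrades cyclic AMP, differed by -0.91. In WDR4 against vector 11 of these 16 lay below 0, beside 56.3% of all kept genes, with a median of -0.29 (0.35 against siCtrl). The clock gene PER1, a target of the factor CREB, differed by -0.86. In vector against siCtrl the median of the 16 was 0.66 (0.41 after median centring), with 5 of 16 at least 2-fold higher beside 9.43% of all kept genes. Below 0 were 4 of 16, beside 42.8% of all kept genes, and PER1 lay at 1.91. The AKAP12 values here are those already given for the gene nearest to NT5E.

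HIF targets lay mostly above control on siPML. In siPML against siCtrl 20 of 21 kept targets lay above 0 and 7 were at least 2-fold higher, with a median of 0.70, beside 51.1% and 2.3% of all kept genes. In WDR4 against vector 16 of 21 lay above 0 and 1 was 2-fold higher, beside 43.7% and 0.362% of all kept genes, with a median of 0.39 (-0.07 against siCtrl). HK2, the hexokinase that starts glycolysis, differed by 2.0 and 0.53 in these comparisons, the glucose transporter gene SLC2A3 by 1.67 and 0.44, and P4HA1, a collagen prolyl hydroxylase subunit, by 1.43 and 0.52. In vector against siCtrl the list had a median of -0.22 with 6 of 21 at least 2-fold lower, beside 3.14% of all kept genes. There NT5E and DPP4 differed by 1.01 and 1.00, and ADORA2B by -0.27. Whether HIF activity had a part in the level of NT5E, ADORA2B or DPP4 was not tested.

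The interferon list stood far higher on the plasmid arrays. Of its 23 kept genes 8 read below the filter level on both siRNA arrays and passed only through the plasmid arrays, so no count of the kept genes is read for vector against siCtrl. Over all 25 genes measured, with no filter, the median there was 4.08, beside ADORA2A at 3.14, CD38 at 2.14 and NT5C3A at 2.01. In siPML against siCtrl 12 of the 23 were at least 2-fold lower, beside 4.27% of all kept genes, and 9 of the 15 that did not pass through the plasmid arrays alone. The median of the 23 was -1.05, where ADORA2A differed by 0.75, CD38 by -1.0 and NT5C3A by 0.62. In WDR4 against vector the median was 0.31, where ADORA2A differed by -0.49. The part of the interferon response in these levels was not tested, and the kind of transfection and the culture cannot be told apart between vector and siCtrl.

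**Figure D5:**
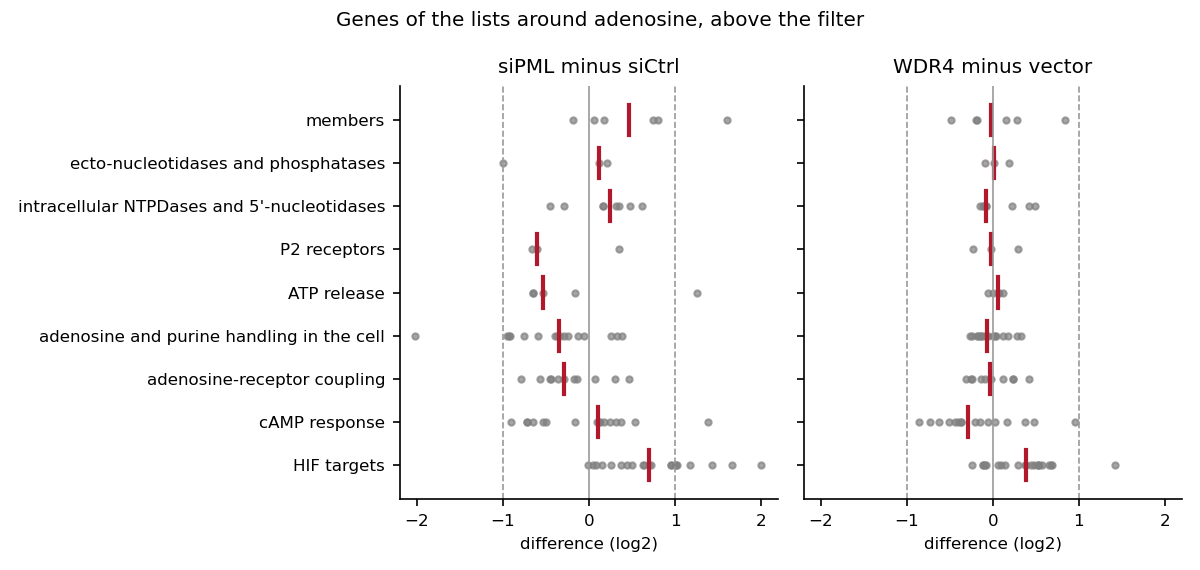
Differences of log2(intensity + 1) of the kept genes of the adenosine set (members) and of 8 related lists in siPML minus siCtrl and WDR4 minus vector, 1 grey point for each gene, with the median of each list as a red bar and dashed lines at 2-fold. HIF targets have the highest median in both panels (0.70 and 0.39). The purine handling genes lie mostly below 0 in siPML minus siCtrl (13 of 16, beside 48.9% of all kept genes). Of the cAMP response genes 11 of 16 lie below 0 in WDR4 minus vector, beside 56.3% of all kept genes.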

How the data were processed

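Cy5-labelled amplified RNA was hybridised, per the labels' protocols, and the deposited table holds 1 linear intensity for each probe and array. For the scanner, background correction and scaling, details were not given in the sources used here. Of 31741 probes, 24658 carried 1 symbol in the platform annotation and were used. Values below 0 were set to 0 and log2(intensity + 1) was taken. A gene was represented by its brightest probe, and 9128 genes with a mean log2 of at least 7.81 were kept. Values between 10 and 600 were resolved into 2 whole-number readings times an array constant for at least 97.5% of values at every level. The SE of a log2 value is the SD of the log2 ratios between readings at its level, divided by 2, and brighter values took that of 300 to 600. Where the readings came from is unknown, so a group counts as 1 array, and the number of arrays limits the precision.

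The members and gene lists were chosen with earlier results of these data known. Named were all 9 members, for every list up to 3 kept genes by absolute difference in either comparison, and the 5 kept genes nearest to NT5E. The genes of like level lay within 0.5 of a gene's mean log2. Alternatives were quantile normalization, median centring, 16 added before log2, the mean over probes, the other control, no filter, an upper quartile filter and a 1.5-fold threshold. The steps were tested on simulated data. Python 3.11.15, numpy 2.4.6 and pandas 2.3.3 were used. Leukocyte, endothelial, fibroblast and epithelial markers were checked as lists.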

Additional observations from a re-analysis of the deposited data

How the results depend on the processing

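With 1 array for each group no array could be left out and no paired analysis was possible because the groups share no replicates beyond 1. NT5E stayed between 1.5 and 1.61 in siPML against siCtrl and between 0.77 and 0.94 in WDR4 against vector under the 4 settings that kept the own control (quantile normalization, median centring, 16 added before log2, mean over probes). Against the other control it was 0.60 for siPML and 1.85 for WDR4. In vector against siCtrl it was 0.80 after quantile normalization and 0.76 after median centring, and that centring shifts every gene of this comparison by -0.25. DPP4 stayed between 0.91 and 1.16, and between 0.63 and 0.83, with the own control, and ADORA2B between 0.70 and 0.81 in siPML against siCtrl. The count of members at least 2-fold higher in vector against siCtrl was 1 under quantile normalization, median centring, 16 added and the upper quartile filter, against 2 as reported. With the other control 1 member was 2-fold lower on siPML (ADORA2A) and 2 were 2-fold higher on WDR4 (NT5E and ADORA2A). The filter, which ADORA2A passed only through the plasmid arrays, favours its place in both of these counts. Without the filter 2 were 2-fold higher on siPML (NT5E and DPP4), and at 1.5-fold 3 were higher on siPML and 1 on WDR4. Of genes of like level to DPP4, 6.85% were 2-fold higher on siPML than on siCtrl, beside 2.3% of all kept genes. The share of all genes with the other control, without the filter or at 1.5-fold is not given here, so these counts are not read as results. With the own control, signs changed under at least 1 of the 4 settings for ADA in siPML against siCtrl, for ENTPD1 and ENTPD5 in WDR4 against vector and for ADA and SLC29A1 in vector against siCtrl, and the cause was not tested.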

Other observations

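Epithelial and leukocyte markers also differed between the arrays. CDH1, the gene of E-cadherin, read 1374 on siPML and 5311 on siCtrl, and 6882 on WDR4 and 7828 on vector, so siPML was the low array. The summed intensity of the 5 epithelial markers measured was 23355 on siPML and 24020 on siCtrl, and 34676 on WDR4 and 39717 on vector. That of the 7 leukocyte markers was 3874 and 10085, and 6072 and 8267, most of it from CD14, while PTPRC, CD3E and LYZ had mean levels below 30. The part of these markers in the levels of the adenosine genes was not tested.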
